A study of Mus musculus with 12 samples.

Results

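The genes described here are 38 mouse genes of the NRF2 pathway, of glutathione metabolism and of the metallothionein family, each found by its gene symbol in the deposited count table. All 38 had a row among the 55492 features of the table, and all 38 were among the 15052 genes with enough counts to be tested. RNA was sequenced from CCN6KOT, a line derived from a mouse breast tumour that its submitters describe as spindle metaplastic, a form of breast cancer whose cells look like those of connective tissue. Every culture received lentivirus and puromycin, so selection is common to the controls as well. There were 4 groups of 3 libraries: Vector (control lentivirus), DNTCF4 (a dominant negative construct aimed at beta-catenin signalling), DNTCF4_EZH2 and DNTCF4_SET (DNTCF4 together with a second construct, given in the design as a rescue protein). The DNTCF4 samples are titled DNTCF4-Vector, so a vector is named beside DNTCF4 in this group too. The titles do not say whether it is the empty form of the second construct. The labels do not spell out SET, and the promoters of the constructs and whether each group was 1 clone or a pool are not given in the sources used here. Whether replicates were grown as independent cultures is not stated either, and the p-values therefore measure only the scatter among the libraries at hand, possibly technical.

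NRF2, encoded by Nfe2l2, is a transcription factor that binds antioxidant response elements together with small MAF proteins. KEAP1 holds NRF2 in the cytoplasm and hands it to the proteasome, and oxidants or electrophiles that modify KEAP1 let NRF2 accumulate, so much of its regulation is at the level of protein rather than RNA. Its classical targets make glutathione, reduce quinones, regenerate thioredoxin and supply NADPH. Metallothioneins are small, cysteine-rich proteins that bind zinc, copper and cadmium. Their genes respond to metals through MTF1, which binds metal response elements, and to other signals.

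The 12 libraries held from 23597545 to 33999982 counts, so that 3 counts, taken as the floor of detection for counting error, correspond to 0.0882 to 0.127 CPM (counts scaled to the size of the library, the unit of all levels below). Tcf7l2, the gene for TCF4, stood at 11.01 ± 2.47 CPM in Vector (mean ± SD, n = 3 here and below) and 39.8 ± 2.41 in DNTCF4, and Ezh2 at 65.4 ± 3.10 CPM in DNTCF4, 449.6 ± 20.4 in DNTCF4_EZH2 and 545.4 ± 33.1 in DNTCF4_SET. DNTCF4 replicate 1 stood apart from the others of its group: the chi-square per degree of freedom over genes was 20.7 and 13.1 against replicates 2 and 3, which differed from each other by 3.33. In the remaining groups this value lay between 2.46 and 16.4, with the highest between DNTCF4_EZH2 replicates 1 and 2. Mitochondrial genes took 1.38% to 1.74% of the counts of a library, with the highest share in Vector (up to 1.74%) and the lowest in DNTCF4_SET (from 1.38%). Of 7 epithelial markers, Krt8 and Krt18 carried most of the summed level (325.5 to 369.2 CPM over the 12 libraries), while Epcam was at or under 0.940 CPM in every library and Krt5 had no count outside DNTCF4_EZH2. Of the 5 epithelial markers tested, 1 was called lower and 1 higher in DNTCF4 than in Vector (adjusted p under 0.05, edgeR test below). Against DNTCF4, 2 were called higher in DNTCF4_EZH2 and 2 in DNTCF4_SET, beside 13.0% and 12.7% of all genes. The log2 differences reached 1.58 and 1.73, with 1 marker called at 2-fold or more in each comparison. The summed level of the 7 markers changed little. It was 325.5 to 365.3 CPM in DNTCF4, 347.1 to 369.2 in DNTCF4_EZH2 and 341.8 to 355.9 in DNTCF4_SET. The 7 spindle cell markers summed to 10410 to 11280 CPM in Vector, 4872 to 5413 in DNTCF4, 6229 to 6302 in DNTCF4_EZH2 and 5713 to 6172 in DNTCF4_SET, with Twist1 at 0 in all 12. Of the 6 spindle markers tested, 3 were called lower and 2 higher in DNTCF4 than in Vector, at log2 changes from -1.18 to 0.28. The lower sum thus does not hold for each marker. Over all genes tested, 28.0% were called lower and 29.5% higher in DNTCF4. The 6 macrophage markers summed to 44.99 to 71.8 CPM, nearly all of it Cd68, with Ptprc at or under 0.591 CPM and Adgre1 at or under 0.188 in every library. The endothelial markers summed to 3.19 to 4.36 CPM in Vector, 5.83 to 7.19 in DNTCF4, 4.28 to 5.32 in DNTCF4_EZH2 and 5.64 to 7.19 in DNTCF4_SET. Of 4 tested, 3 were called higher in DNTCF4 than in Vector. The adipocyte and liver markers summed to at most 0.339 CPM. The part of these differences in the results below was not tested, and in bulk RNA a smaller share of cells with a transcript and less of it per cell cannot be told apart.

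DNTCF4 against Vector compares these genes between cells with the dominant negative construct and cells with the control lentivirus. Here and below, an effect of a construct and other differences between the cultures of the groups cannot be told apart. Most of them fell: 28 of the 38 were lower in DNTCF4, 9 were higher, and Gsr alone did not pass the test (edgeR quasi-likelihood test, adjusted p under 0.05 over all genes tested). Over all genes tested, 28.0% were called lower and 29.5% higher. The median log2 change of the 38 was -0.35, beside 0.01 for all genes, and the median size of the change was 0.43, beside 0.27. The libraries of the 2 groups did not overlap for 35 of the 38 genes, beside 59.3% of all genes. At least 2-fold changes were called for 6 genes (Sod2 and Mt2 up, Gstm2, Gsta2, Sod3 and Gsta4 down), beside 11.7% of all genes. By role, most glutathione transferases, all 5 thioredoxin and peroxiredoxin genes and most NADPH genes fell, while the metallothioneins, mitochondrial superoxide dismutase and the cystine transporter rose.

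**Figure D1:**
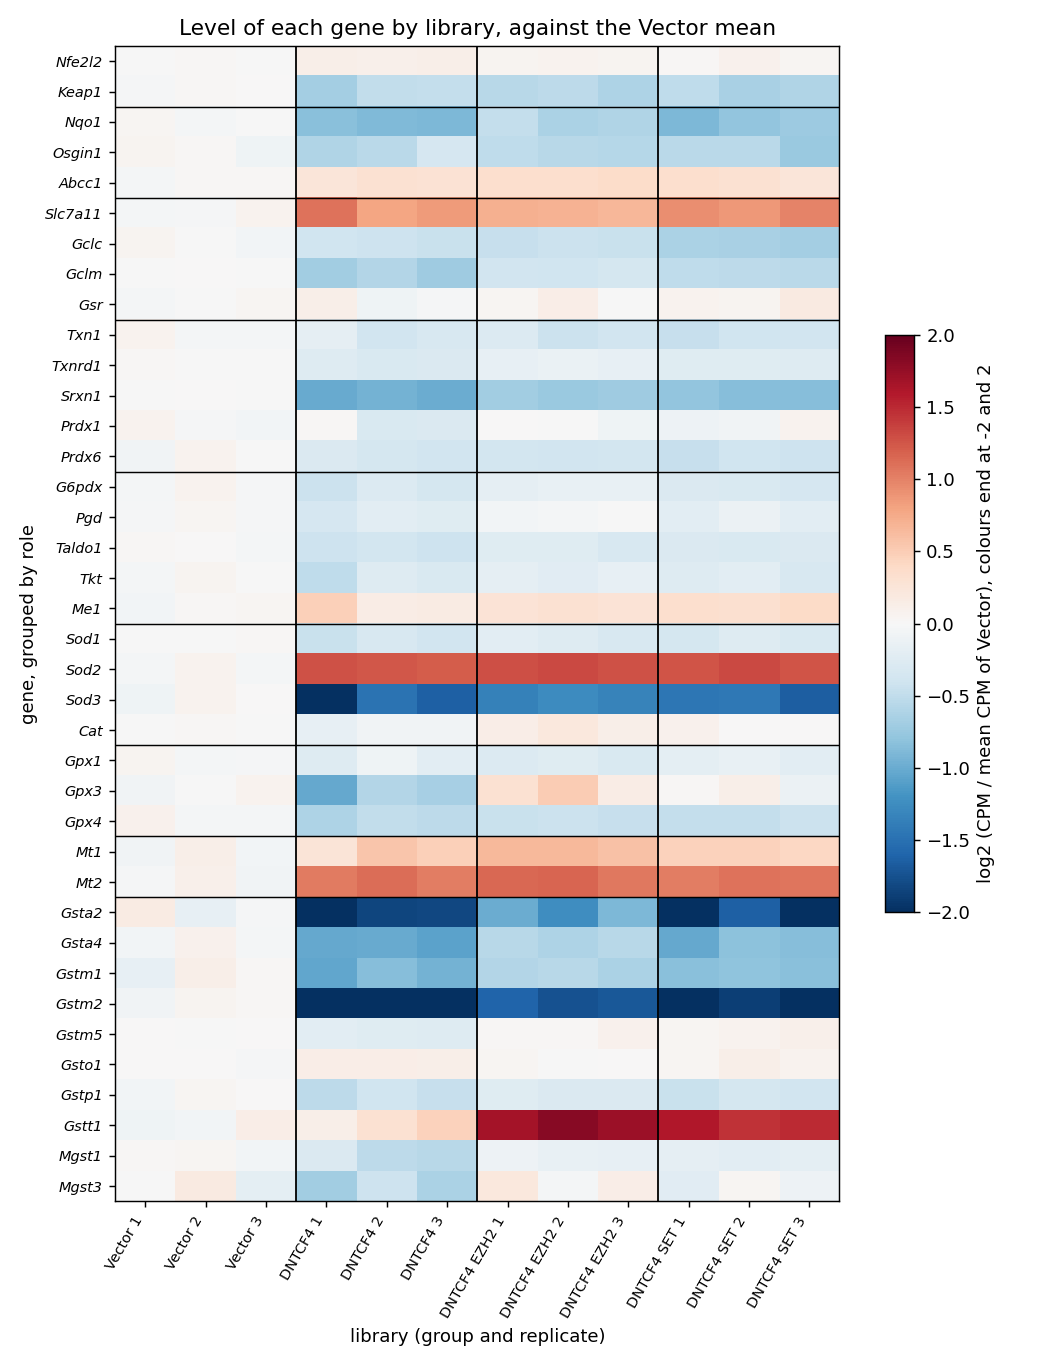
Level of each of the 38 genes in each of the 12 libraries, as log2 of its CPM over its mean CPM in Vector, with genes grouped by role (horizontal lines) and libraries by group (vertical lines). Red is higher and blue lower than the Vector mean, and colours end at -2 and 2. The rows of Mt2, Sod2 and Slc7a11 are red in all 9 libraries with DNTCF4, and those of Gstm2, Sod3 and Srxn1 are blue.

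The regulators changed in opposite directions. Nfe2l2 (chr2:75675513-75704641 on GRCm38, minus strand) had 177.8, 180.9 and 177.9 CPM across Vector and 193.1, 192.7 and 193.9 in DNTCF4. The groups were apart but close, and the rise was 1.08-fold (log2 0.11, SE 0.03, adjusted p = 0.00601); fitted on the 6 libraries of this comparison alone it was 0.10 with an adjusted p of 0.0623. Keap1 (chr9:21229730-21239361, minus strand) had 50.9, 52.4 and 51.8 CPM in Vector against 32.3, 36.6 and 37.1 in DNTCF4. This gene for the NRF2 inhibitor was thus lower in every DNTCF4 library, by 1.46-fold (log2 -0.55, SE 0.06, adjusted p = 7.9e-07). An antisense gene, Gm16754, overlaps 10.9% of the Keap1 exon bases, and the use of strand in the counting was not given in the sources used here. Gm16754 had 99 to 235 counts per library, beside 847 to 1417 for Keap1. Its counts summed to 321 in Vector and 652 in DNTCF4, and the part of the overlap in the Keap1 fall was not tested.

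Of the 3 genes for quinone reduction, feedback and export, Nqo1 and Osgin1 fell and Abcc1 rose. Nqo1, the quinone reductase often used as a readout of NRF2, stood at 33.9, 32 and 32.9 CPM in Vector and 18.4, 17.8 and 17.6 in DNTCF4. The groups were well apart, with a fall to nearly the same level in each library (log2 -0.88, SE 0.06, adjusted p = 8.56e-09). Osgin1, an oxidative stress-induced growth inhibitor, fell from 14.9 ± 0.785 to 10.6 ± 1.01 CPM. Abcc1, an efflux pump for glutathione conjugates, had 327.5, 342.1 and 342.0 CPM in Vector and rose to 399.4, 414.4 and 410.3 (log2 0.28, SE 0.03).

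The 4 genes of glutathione supply were split: Slc7a11 RNA rose, Gclc and Gclm RNA fell, and Gsr did not pass the test. Slc7a11 encodes the transporter that brings in cystine, the source of the cysteine in glutathione. Its levels were 133.8, 136.1 and 144.4 CPM in Vector and 293.2, 239.2 and 249.1 in DNTCF4, with the highest value in replicate 1, the library that stood apart. All DNTCF4 libraries lay above all Vector ones, and the rise was 1.89-fold (log2 0.92, SE 0.06, adjusted p = 6.45e-09). Gclc and Gclm encode the catalytic and modifier subunits of glutamate-cysteine ligase, the rate-limiting enzyme of glutathione synthesis. Gclm had 213.1, 214.2 and 213.2 CPM in Vector and 131.2, 142.2 and 130.5 in DNTCF4, a fall of similar size in each library (log2 -0.67, SE 0.04, adjusted p = 5.77e-10). Gclc went from 128.6 ± 5.001 to 96.1 ± 1.49 CPM (log2 -0.42, SE 0.04, adjusted p = 1.32e-07). Gsr, the reductase that returns oxidised glutathione to its reduced form, stood at 103.9 ± 2.79 and 104.4 ± 7.82 CPM, and its log2 difference of 0.01 had an SE of 0.06.

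All 5 genes of the thioredoxin and peroxiredoxin system were lower in DNTCF4. Srxn1, the sulfiredoxin that repairs over-oxidised peroxiredoxins, changed most: it had 181.7, 183.0 and 181.9 CPM in Vector against 90.9, 94.2 and 91.9 in DNTCF4. The replicates of each group lay within a few CPM of each other, and the fall was 1.97-fold (log2 -0.98, SE 0.03, adjusted p = 2.57e-12). Txn1 (thioredoxin), Txnrd1 (its reductase) and Prdx6 fell by 0.29, 0.28 and 0.34 on the log2 scale. For Prdx1 the groups overlapped (294.8, 275.4 and 268.0 CPM against 285.5, 226.7 and 228.7), and its adjusted p was 0.0491. Without DNTCF4 replicate 1 its log2 change went from -0.18 to -0.30 (adjusted p = 7.38e-06), and without Vector replicate 1 or 2 or DNTCF4 replicate 2 or 3 the call was lost, at -0.12, -0.18, -0.13 and -0.11.

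The upstream sequences of Srxn1 and Gclm, a pair of NRF2 targets that fell, are shown because antioxidant response elements lie in promoters of this kind. They are the 250 bases before the start site from RefSeq (GRCm38.p6), at chr2:152105274-152105523 and chr3:122245307-122245556, plus strand. Capitals mark matches, on either strand, to the core of the antioxidant response element (TGACNNNGC), to the core of the metal response element (TGCGCNC or TGCACNC) or to an AP-1 site (TGANTCA), and matches may overlap.
Srxn1: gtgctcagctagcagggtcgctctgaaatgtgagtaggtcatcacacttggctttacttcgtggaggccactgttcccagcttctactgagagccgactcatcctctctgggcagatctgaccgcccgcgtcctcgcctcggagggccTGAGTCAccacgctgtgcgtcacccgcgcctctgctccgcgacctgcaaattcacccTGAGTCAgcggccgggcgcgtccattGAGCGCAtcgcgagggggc
Gclm: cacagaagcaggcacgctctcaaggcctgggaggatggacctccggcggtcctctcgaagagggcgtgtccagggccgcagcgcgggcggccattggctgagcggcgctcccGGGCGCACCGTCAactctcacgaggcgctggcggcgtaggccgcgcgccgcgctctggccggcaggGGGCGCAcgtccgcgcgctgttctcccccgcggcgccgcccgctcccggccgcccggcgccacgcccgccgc
In Srxn1 the marked runs are AP-1 matches that begin 102 and 45 bases before the start site and a metal response element core at 19 bases before it. Its match to TGACNNNGC begins at base 29 after the start site, past the stretch shown. The AP-1 match at 45 bases before it reads on as TGAGTCAGC. This differs from TGACNNNGC in 1 letter, and forms that begin with TGAG were not searched as antioxidant response elements. In Gclm the first marked run joins a metal response element core (138 bases before the start site) to an antioxidant response element core (134 bases before it), both read on the minus strand, and a second metal response element core begins 72 bases before. Such a match is a description of letters and says nothing on binding.

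The RefSeq promoter table, with 250 bases before and 50 after each start site, held 32 of the 38 genes in 41 promoters. The antioxidant response element core, in the form TGACNNNGC only, occurred in 12 of these 41 (29.3%), beside 12.4% of the 32851 promoters in the table. Stretches such as TGAGTCAGC, present in Srxn1 and Gstp1, count here as AP-1 matches only. An AP-1 match, which can lie within that core, occurred in 7 (17.1%, beside 7.81%). The metal response element core occurred in 7 in its G form (17.1%, beside 15.4%) and in 6 in its A form (14.6%, beside 12.6%). By direction in DNTCF4, the antioxidant core was in 9 of the 24 genes in the table that fell (Gclm, Txnrd1, Srxn1, Prdx1, G6pdx, Pgd, Sod1, Gstm5 and Mgst1) and in 3 of the 8 that rose (Nfe2l2, Me1 and Mt2).

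Of the 5 genes of NADPH supply, the 4 of the pentose phosphate pathway fell and Me1 rose. G6pdx, the first enzyme of the pathway, went from 193.8 ± 7.84 to 151.7 ± 8.43 CPM, and Pgd, the next NADPH-producing step, from 147.1 ± 3.97 to 122.8 ± 5.46. The antisense gene Ikbkg overlaps 13.6% of the G6pdx exon bases and had 2801 to 4132 counts per library, beside 3765 to 5846 for G6pdx. Taldo1 (transaldolase) had 135.5, 135.3 and 130.9 CPM in Vector and 101.0, 104.3 and 100.9 in DNTCF4 (log2 -0.39, SE 0.04, adjusted p = 1.91e-07). Tkt (transketolase) fell by 0.35 on the log2 scale. Me1, the cytosolic malic enzyme and another source of NADPH, had 75.5, 79.8 and 80.4 CPM in Vector and 109.6, 87.4 and 87.6 in DNTCF4. Its rise of 0.27 (SE 0.07, adjusted p = 0.00322) was 0.15 without DNTCF4 replicate 1, its highest library (adjusted p = 0.00133). The Me1 transcripts share 22.9% of their 50-base stretches with other annotated genes, so its counts are uncertain to that extent.

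The superoxide dismutases went apart from each other more than any other role here, from -1.73 to 1.24 on the log2 scale. Sod2, the manganese enzyme of mitochondria, had 108.4, 116.9 and 107.4 CPM in Vector and 266.9, 261.9 and 256.3 in DNTCF4. The rise was 2.36-fold (log2 1.24, SE 0.04, adjusted p = 8.58e-13), the largest among the 38 genes, and 21.0% of the 50-base stretches of its transcripts recur in other genes. Sod3, the secreted extracellular enzyme, had 415.3, 462.0 and 440.9 CPM in Vector against 98.3, 157.9 and 141.1 in DNTCF4. Its fall was 3.31-fold (log2 -1.73, SE 0.12, adjusted p = 7.39e-09), with the lowest value in DNTCF4 replicate 1. Sod1, the cytosolic copper-zinc enzyme, fell by 0.38 on the log2 scale. Cat (catalase) stood at 236.6 ± 2.79 and 220.7 ± 7.58 CPM, a fall by 0.10 with an adjusted p of 0.0366, which was lost without any 1 of Vector replicates 1, 2 and 3 or DNTCF4 replicates 1 and 3 (log2 changes of -0.09, -0.09, -0.10, -0.08 and -0.10).

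The 3 glutathione peroxidases fell. Gpx4, which reduces lipid hydroperoxides in membranes, had 310.3, 284.5 and 286.4 CPM in Vector and 191.9, 208.9 and 205.0 in DNTCF4 (log2 -0.54, SE 0.04, adjusted p = 2.56e-08). Other genes share 34.7% of the 50-base stretches of its transcripts. Gpx3, the secreted plasma enzyme, had 11.7, 12.2 and 12.8 CPM against 6.02, 8.15 and 7.69, a 1.67-fold fall (log2 -0.74, SE 0.11, adjusted p = 5.55e-05). Gpx1, the abundant cytosolic enzyme, fell by 0.18 on the log2 scale (adjusted p = 0.0031).

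Both metallothionein genes rose in DNTCF4. Mt2 (chr8:94172664-94173568) had 87.1, 95.1 and 84.1 CPM in Vector and 183.1, 193.0 and 180.3 in DNTCF4, and neighbouring Mt1 (chr8:94179082-94180327) had 109.0, 123.5 and 110.6 against 137.3, 167.0 and 159.9. Neither gene had a DNTCF4 library as low as any Vector one. The changes were 2.09-fold for Mt2 (log2 1.06, SE 0.05, adjusted p = 6.08e-11) and 1.35-fold for Mt1 (log2 0.44, SE 0.06, adjusted p = 2.55e-05). Scaled by union exon length as well as library size (TPM), Mt2 was at 506.0 in Vector and 1074 in DNTCF4, and Mt1 at 307.5 and 422.6. By this measure Mt2 was the highest of the 38 genes in DNTCF4, where Gstp1 stood at 682.2 TPM. In Vector Gstp1 was first, at 925.2. These ranks depend on the lengths used, 1246 bases for Mt1 and 588 for Mt2. A union of all annotated exons can be longer than the transcript that is present, which lowers the TPM. By mean CPM Mt1 was above Mt2 in Vector (114.3 against 88.8) and below it in DNTCF4 (154.7 against 185.5). The antisense gene Gm45774 overlaps 73.5% of the Mt2 exon bases but had 13 to 81 counts per library, beside 2008 to 6737 for Mt2. No 50-base stretch of Mt1 or Mt2 was found in another gene.

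The 250 bases before the RefSeq start sites of Mt2 (chr8:94172368-94172617, plus strand, GRCm38.p6) and Mt1 (chr8:94178839-94179088, plus strand) are shown because the adjacent genes rose together. Capitals mark the same motifs as above.
Mt2: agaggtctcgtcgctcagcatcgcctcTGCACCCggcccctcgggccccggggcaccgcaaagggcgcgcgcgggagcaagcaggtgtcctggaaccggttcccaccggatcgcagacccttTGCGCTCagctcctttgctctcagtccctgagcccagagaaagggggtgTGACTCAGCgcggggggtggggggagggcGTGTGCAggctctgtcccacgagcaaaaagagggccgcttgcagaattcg
Mt1: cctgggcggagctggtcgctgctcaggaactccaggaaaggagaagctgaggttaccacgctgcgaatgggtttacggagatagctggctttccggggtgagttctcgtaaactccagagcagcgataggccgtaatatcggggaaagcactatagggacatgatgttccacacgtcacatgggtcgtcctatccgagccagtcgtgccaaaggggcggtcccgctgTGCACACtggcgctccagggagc
The Mt2 stretch holds metal response element cores that begin 223, 128 and 50 bases before the start site, and TGACTCAGC at 79 bases before it, which matches the antioxidant core and holds an AP-1 match. In Mt1 a metal response element core begins 23 bases before the start site, and others lie just past the stretch shown, at bases 3 and 21 after the start site. The positions depend on the RefSeq start site, and bases more than 50 after it were not searched. The stretches shown therefore do not compare the number of such cores in Mt1 and Mt2.

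Among the 10 glutathione transferases, which join glutathione to electrophiles, 8 fell and Gsto1 and Gstt1 rose. The mu class gene Gstm2 (chr3:107981702-107986453) had 28.1, 30.5 and 29.8 CPM in Vector and 4.95, 5.95 and 4.76 in DNTCF4. That 5.61-fold fall (log2 -2.49, SE 0.08, adjusted p = 1.17e-12) was the largest of the 38 genes. Its neighbours in the same cluster fell less: Gstm1 had 88.0, 107.0 and 100.3 CPM against 47.9, 54.3 and 51.0 (log2 -0.95, SE 0.06, adjusted p = 5.26e-09), and Gstm5 changed by -0.23. Gstm1 shares 18.9% of its 50-base stretches with other genes, and Gstm2 5.7%. The antisense gene 4933431E20Rik overlaps 13.9% of the Gstm5 exon bases and had 209 to 301 counts per library, beside 595 to 926 for Gstm5. The alpha class gene Gsta4, known for clearing lipid aldehydes, had 60.1, 66.4 and 60.3 CPM in Vector and 30.6, 30.8 and 29.7 in DNTCF4 (log2 -1.04, SE 0.06, adjusted p = 5.1e-10). Gsta2 was the least abundant, with 108, 88 and 85 counts in Vector and 19, 32 and 28 in DNTCF4, or 3.63 ± 0.411 and 0.922 ± 0.172 CPM. Its 3.90-fold fall (log2 -1.96, SE 0.20, adjusted p = 7.47e-07) is uncertain as to the gene, since 49.8% of its 50-base stretches are shared, chiefly with Gsta1.

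The other transferases changed less. Gstp1 (pi class), Mgst1 and Mgst3 (membrane-bound enzymes) fell by 0.46, 0.45 and 0.57 on the log2 scale, and Gstp1 shares 33.7% of its 50-base stretches, chiefly with Gstp2. Gsto1 (omega class) had 157.6, 156.8 and 154.5 CPM in Vector and 170.7, 172.2 and 170.2 in DNTCF4, a rise of 0.13 (SE 0.03, adjusted p = 0.0029). Gstt1 (theta class) overlapped between the groups, at 4.86, 4.95 and 5.62 CPM against 5.60, 6.37 and 7.07. Its rise of 0.31 (adjusted p = 0.017) lost its call without Vector replicate 1 or 2 or DNTCF4 replicate 3 (0.28, 0.29 and 0.24). In all, 34 of the 37 calls held whichever library was left out, the exceptions being Prdx1, Cat and Gstt1.

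**Figure D2:**
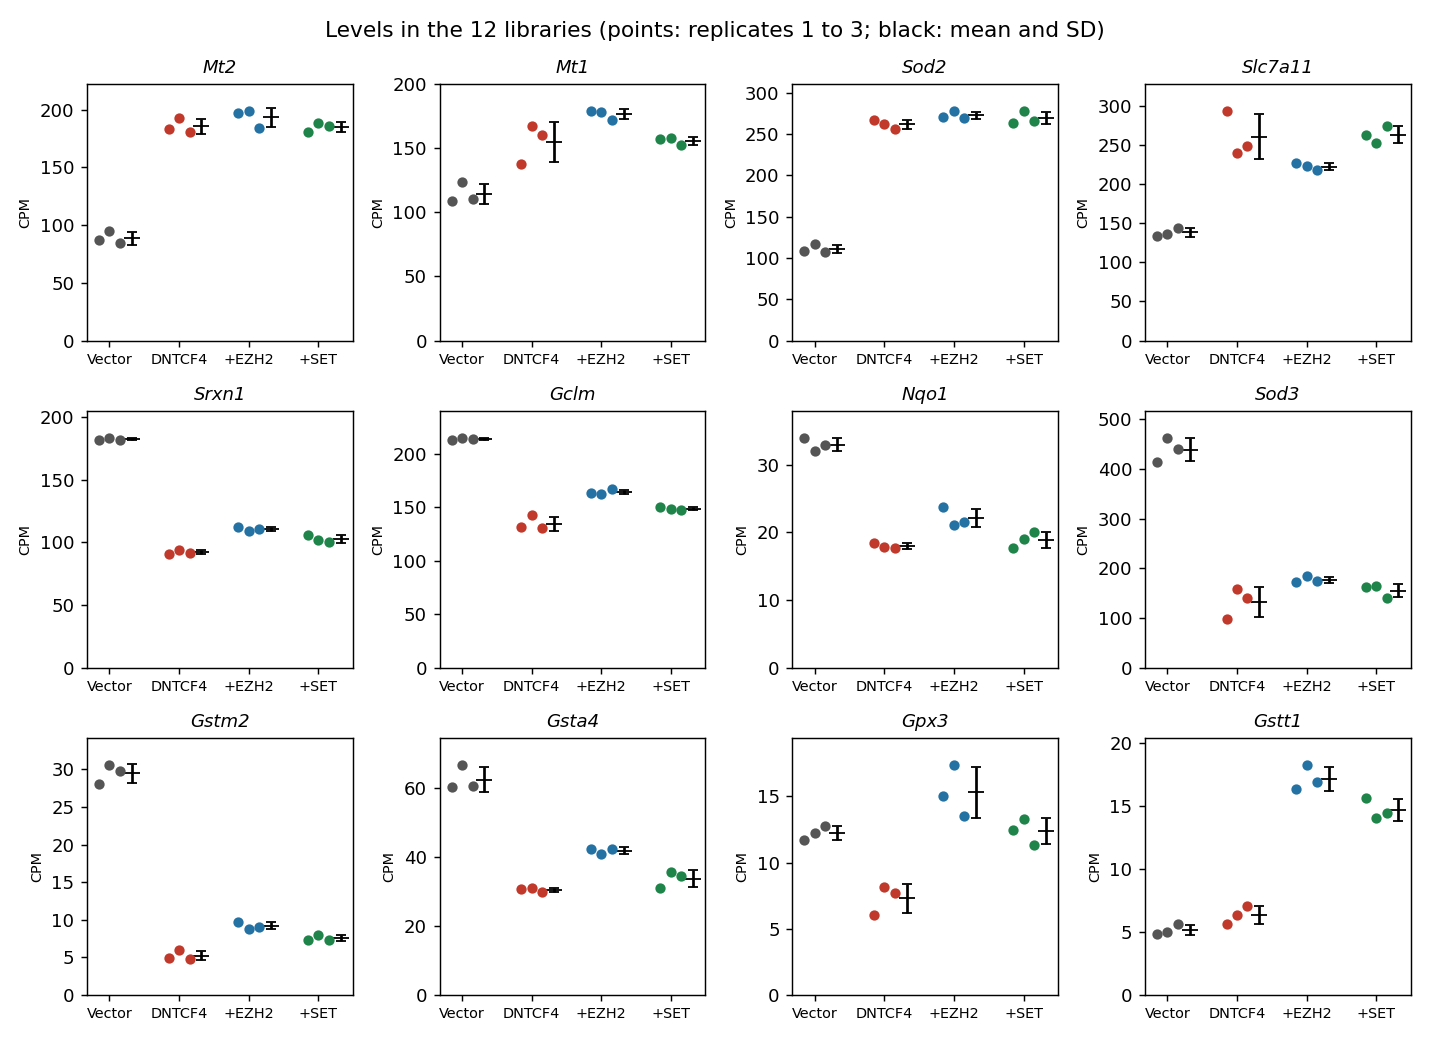
CPM of 12 of the genes in each library: coloured points are replicates 1 to 3 of Vector, DNTCF4, DNTCF4_EZH2 (+EZH2) and DNTCF4_SET (+SET), and black bars are the mean and SD, on axes that start at 0. Mt2, Mt1, Sod2 and Slc7a11 are higher in the 3 DNTCF4 libraries than in the 3 Vector ones, the next 7 are lower, and Gstt1 is high in the 6 libraries with a second construct (14.0 to 18.2 CPM).

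DNTCF4_EZH2 against DNTCF4 compares cells with DNTCF4 and EZH2, the histone methyltransferase of Polycomb repressive complex 2, with the DNTCF4 cells. The latter are titled DNTCF4-Vector and had no EZH2 construct. Here the 38 genes moved mainly up: 22 were higher, 2 were lower (Slc7a11 and Gsto1) and 14 did not pass the test. Of all genes tested, 13.0% were called higher and 12.5% lower. The median log2 change of the 38 genes was 0.16, beside -0.00047 for all genes, and its median size was 0.18, beside 0.14. A change of at least 2-fold was called for Gstt1 and Gpx3, beside 1.73% of all genes. The libraries did not overlap for 28 of the 38 genes, beside 39.1% of all. The DNTCF4 libraries are shared with the comparison against Vector, so the changes of a gene in the 2 comparisons are not independent and are given side by side.

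The transferases moved most, with 9 of 10 higher. Gstt1 had 5.60, 6.37 and 7.07 CPM in DNTCF4 and 16.4, 18.2 and 16.9 in DNTCF4_EZH2, a rise larger than that of any of the other 37 genes (log2 1.43, SE 0.09, adjusted p = 1.1e-08) after one of 0.31 from Vector to DNTCF4. Its DNTCF4_EZH2 libraries thus lay above all libraries of both other groups. For Gstm2 the DNTCF4_EZH2 values were 9.67, 8.78 and 9.09 CPM, above all of DNTCF4 and below all of Vector (log2 0.81, SE 0.09, adjusted p = 7.93e-06, beside -2.49). Gsta4 stood at 42.3, 40.7 and 42.3 CPM (log2 0.46, SE 0.06, adjusted p = 3.02e-05, beside -1.04), and Gstm1 at 65.2, 66.9 and 63.6 (0.35, beside -0.95), both again between the DNTCF4 and Vector libraries. Gsta2 rose to 1.82, 1.53 and 1.95 CPM, from 47 to 62 counts per library (log2 0.93, SE 0.21, adjusted p = 0.00487), with the same uncertainty as to the gene. Mgst3 had 4.15, 5.09 and 4.36 CPM in DNTCF4 and 7.79, 6.59 and 7.37 in DNTCF4_EZH2 (0.67, beside -0.57), within the spread of the Vector libraries (5.87 to 7.69) but for the highest. Gstm5, Gstp1 and Mgst1 rose by 0.28, 0.19 and 0.31. Gsto1 fell by 0.11 (adjusted p = 0.0159), and that call was lost without DNTCF4_EZH2 replicate 2 or 3 (-0.11 in both).

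Of the glutathione peroxidases, Gpx3 rose from 6.02, 8.15 and 7.69 to 15.03, 17.3 and 13.5 CPM, a 2.09-fold change (log2 1.06, SE 0.11, adjusted p = 4.75e-06, beside -0.74). All 3 values lay above the Vector libraries (11.7 to 12.8 CPM), a difference that was not tested. Gpx1 and Gpx4 had log2 differences of -0.09 and 0.09 and did not pass, though Gpx1 was called lower without DNTCF4 replicate 1 (-0.13, adjusted p = 0.0193).

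In glutathione supply, Gclm rose and Slc7a11 fell. Gclm had 162.9, 162.5 and 166.5 CPM (log2 0.28, SE 0.04, adjusted p = 4.29e-05, beside -0.67). For Slc7a11 the values were 226.7, 222.8 and 217.9 CPM, below all DNTCF4 libraries but above all of Vector (log2 -0.23, SE 0.06, adjusted p = 0.0122, beside 0.92), and without DNTCF4 replicate 1 the log2 change was -0.14 (adjusted p = 0.0087). Fitted on the 6 libraries compared alone, its adjusted p was 0.0517. Gclc and Gsr did not pass, at -0.02 and 0.05.

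Of the 5 thioredoxin and peroxiredoxin genes 2 rose, Srxn1 and Txnrd1, while Prdx1 (log2 difference 0.15), Txn1 (-0.07) and Prdx6 (-0.02) did not pass. Of the 5 NADPH genes 4 rose and Me1 (0.01) did not pass. Without DNTCF4 replicate 1 Prdx1 and Me1 were called, at 0.26 and 0.13 (adjusted p = 0.00011 and 0.0113), and with no filter on low counts so was Prdx1 (0.15, adjusted p = 0.00599). Srxn1 had 112.1, 109.4 and 110.8 CPM, above all DNTCF4 libraries and far below all of Vector (log2 0.26, SE 0.03, adjusted p = 4.7e-05, beside -0.98), and Txnrd1 rose by 0.13. Pgd stood at 142.1, 142.7 and 146.2 CPM (0.23, SE 0.04, adjusted p = 0.000807, beside -0.26), and G6pdx rose by 0.19. Taldo1 and Tkt were called at 0.13 and 0.17, but Tkt was at 0.09 without DNTCF4 replicate 1 (adjusted p = 0.0505) and also lost its call without any 1 of the 3 DNTCF4_EZH2 libraries (0.16, 0.18 and 0.15). Taldo1 lost its call without DNTCF4 replicate 3 or DNTCF4_EZH2 replicate 1 or 2 (0.12, 0.12 and 0.11). Nqo1 had 23.7, 21.2 and 21.6 CPM (0.31, SE 0.06, adjusted p = 0.0019, beside -0.88).

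Cat had 259.6, 273.7 and 256.6 CPM, above every DNTCF4 and Vector library (log2 0.25, SE 0.04, adjusted p = 0.000172, beside -0.10). Sod3 had 171.6, 184.5 and 174.4 CPM, a rise of 0.41 (SE 0.12, adjusted p = 0.0166, beside -1.73) that was 0.24 without DNTCF4 replicate 1 (adjusted p = 0.00439) and lost its call without DNTCF4_EZH2 replicate 2 (0.38, adjusted p = 0.0643). Sod2 (0.06) did not pass. Sod1 was called at 0.12 (adjusted p = 0.0398), and that call was lost without DNTCF4 replicate 1 or 3 or DNTCF4_EZH2 replicate 1 or 2, at 0.09, 0.12, 0.09 and 0.11.

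The regulators and Mt2 showed no called change: Nfe2l2 had a log2 difference of -0.05 (SE 0.03), Keap1 of -0.02 (SE 0.06) and Mt2 of 0.06 (SE 0.05). Mt1 had 178.7, 178.2 and 171.8 CPM and was called higher (0.19, SE 0.06, adjusted p = 0.0356). Without DNTCF4 replicate 1, its lowest DNTCF4 library, the difference was 0.11 (adjusted p = 0.0601), and the call was also lost without any 1 of the 3 DNTCF4_EZH2 libraries (0.18, 0.18 and 0.21). In all, 18 of the 24 calls in this comparison held whichever library was left out.

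**Figure D3:**
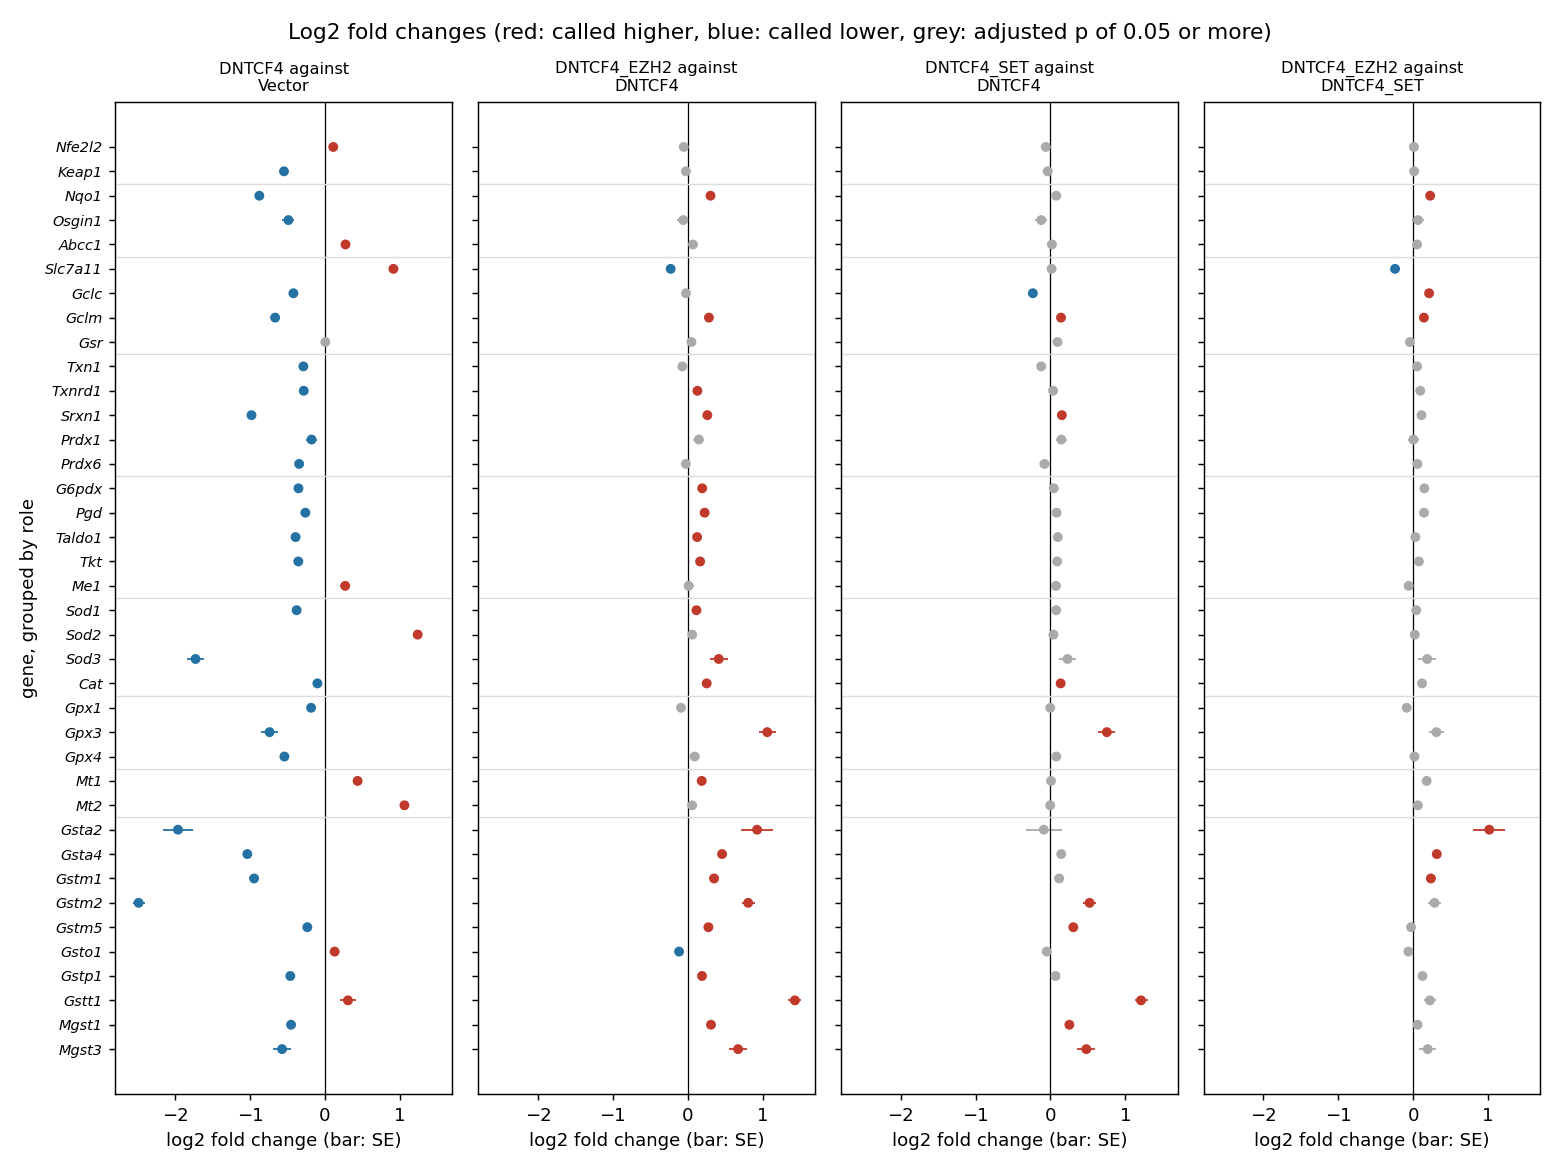
Log2 fold change of each of the 38 genes in the 4 comparisons, with horizontal bars for the SE (edgeR, 12 libraries); red points were called higher, blue lower, and grey ones had an adjusted p of 0.05 or more. Blue points make up most of the DNTCF4 against Vector panel (28 of 38), red ones most of the DNTCF4_EZH2 against DNTCF4 panel (22), and grey ones most of the remaining panels (28 and 31).

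DNTCF4_SET against DNTCF4 makes the same comparison for the second rescue construct. Here 9 of the 38 genes were higher, Gclc alone was lower and 28 did not pass, beside 12.7% of all genes called higher and 13.3% called lower. The median log2 change was 0.08, beside -0.0040 for all genes, and its median size of 0.09 lay below the 0.14 of all genes. Only Gstt1 was called at 2-fold or more, beside 2.02% of all genes. The libraries did not overlap for 17 of the 38 genes, beside 37.2% of all.

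The 9 rises were in Gstt1, Gstm2, Gstm5, Mgst1, Mgst3, Gpx3, Gclm, Srxn1 and Cat. Gstt1 had 15.7, 14.0 and 14.4 CPM in DNTCF4_SET (log2 1.21, SE 0.09, adjusted p = 1.34e-07) and Gpx3 had 12.5, 13.3 and 11.3 (0.75, SE 0.11, adjusted p = 0.00019), the latter around the Vector values. Gstm2 had 7.37, 8.01 and 7.28 CPM, above DNTCF4 and below Vector (0.52, SE 0.09, adjusted p = 0.000643). Mgst3 stood at 5.79, 6.96 and 6.31 CPM (0.48, SE 0.12, adjusted p = 0.00828). Gstm5 had 27.0, 27.6 and 28.1 CPM, above all DNTCF4 and Vector libraries (0.31, SE 0.05, adjusted p = 0.000175), and Mgst1 48.9, 47.9 and 48.6 (0.25, SE 0.06). The peroxiredoxin repair gene Srxn1 had 106.0, 101.5 and 100.5 CPM (0.15, SE 0.03, adjusted p = 0.00436).

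Gclm stood at 150.1, 147.9 and 147.5 CPM (0.14, SE 0.04, adjusted p = 0.0106), and without DNTCF4 replicate 3 its call was lost (0.12, adjusted p = 0.057). Cat (catalase) had 251.8, 239.1 and 237.1 CPM (0.14, SE 0.04, adjusted p = 0.0163), and without DNTCF4_SET replicate 1 its call was lost (0.11, adjusted p = 0.0966). Gclc fell: it had 82.8, 81.6 and 80.5 CPM against 97.2, 96.6 and 94.4 in DNTCF4 (log2 -0.24, SE 0.04, adjusted p = 0.000296), so that the subunits of the ligase moved in opposite directions. In the NADPH role none of the 5 passed, with log2 differences of 0.04 to 0.10, of which Taldo1 (109.4, 108.4 and 109.9 CPM) had the smallest adjusted p, 0.0544. Taldo1 was called higher with DESeq2 size factors, the DESeq2 test, limma on the rlog values, a filter at 1 CPM and without DNTCF4 replicate 2 (adjusted p from 0.0146 to 0.044). Me1 was called higher without DNTCF4 replicate 1 (0.19, adjusted p = 0.000515). Nqo1 had a difference of 0.08 (SE 0.06). The metallothioneins differed by 0.01 (Mt1, SE 0.06) and -0.0034 (Mt2, SE 0.05), and Nfe2l2 and Keap1 by -0.06 and -0.04. Without DNTCF4 replicate 1, Slc7a11, Gsr and Prdx1 were also called higher (0.11, 0.15 and 0.26). Without DNTCF4 replicate 2 Sod3 was called higher (0.37) and Txn1 lower (-0.17), and without DNTCF4_SET replicate 1 Gsta4 was called higher (0.20). With no filter Prdx1 and Sod3 were called higher (0.14 and 0.22).

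DNTCF4_EZH2 against DNTCF4_SET tests the difference between the groups with a second construct. Ezh2 RNA was raised in both and lower in DNTCF4_EZH2 than in DNTCF4_SET (log2 -0.28, adjusted p = 0.003), so the comparison is not one of cells with and without raised Ezh2 RNA. The Set gene was not raised in DNTCF4_SET, with 550.4 ± 17.2 CPM beside 616.4 ± 43.5 in DNTCF4 (log2 -0.16, adjusted p = 0.0144). Of the 38 genes, 6 were higher in DNTCF4_EZH2 (Nqo1, Gclc, Gclm, Gsta2, Gsta4 and Gstm1), Slc7a11 was lower and 31 did not pass, beside 3.00% of all genes called higher and 2.17% lower. The count of 6 depended on the settings: it was 17 with only the 6 libraries compared, 11 with no filter on low counts, 3 with DESeq2 size factors and 2 to 3 with a library left out. A difference of 2-fold was called for Gsta2 alone, beside 0.140% of all genes. The median log2 difference was 0.07, beside 0.0019 for all genes, with a median size of 0.09 in both. The libraries did not overlap for 24 of the 38, beside 31.8% of all genes.

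The calls for Gclc and Gsta4 held whichever library was left out. Gclc was at 93.6, 95.9 and 94.2 CPM in DNTCF4_EZH2 and 82.8, 81.6 and 80.5 in DNTCF4_SET (log2 0.21, SE 0.04, adjusted p = 0.0035), and Gsta4 at 42.3, 40.7 and 42.3 against 30.8, 35.5 and 34.5 (0.31, SE 0.06, adjusted p = 0.00401). For Gsta2 the counts were 62, 47 and 58 against 20, 31 and 25 (1.02, SE 0.21, adjusted p = 0.0118), and its call was lost without DNTCF4_EZH2 replicate 3 or DNTCF4_SET replicate 1 or 3 (0.94, 0.90 and 0.91). Nqo1 had 23.7, 21.2 and 21.6 CPM against 17.7, 19.1 and 20.02 (0.23, adjusted p = 0.0438). The other calls were Gclm (0.14, adjusted p = 0.0345), Gstm1 (0.24, adjusted p = 0.0415) and Slc7a11 (-0.24, adjusted p = 0.0309). Those for Nqo1, Gclm, Gstm1 and Slc7a11 were lost whichever 1 of the 6 libraries was left out, with adjusted p from 0.0519 to 0.204 for Nqo1, 0.0873 to 0.156 for Gclm, 0.0979 to 0.154 for Gstm1 and 0.0566 to 0.138 for Slc7a11.

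Gstt1, Gpx3 and Gstm2, which rose with either construct, did not pass the test between them (log2 0.22, 0.31 and 0.29, with SE 0.08, 0.10 and 0.08), although their libraries did not overlap. With only the 6 libraries compared all 3 were called (adjusted p = 0.0253, 0.0191 and 0.0214), and Gpx3 also with no filter (adjusted p = 0.00936). Txnrd1, Srxn1, G6pdx and Pgd had differences of 0.09, 0.11, 0.15 and 0.14 and adjusted p from 0.0554 to 0.0789, and all 4 were called with only the 6 libraries (adjusted p from 0.00144 to 0.0242). Mt1 had a difference of 0.18 (SE 0.06, adjusted p = 0.113), also with no overlap, and was called with only the 6 libraries (adjusted p = 0.00039) and with no filter (adjusted p = 0.00337). Sod3, Cat, Gpx1 and Gstp1 were likewise called with only the 6 libraries (0.18, 0.11, -0.09 and 0.12), and Sod3 with no filter (0.20). Nfe2l2 differed by 0.01 (SE 0.03).

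**Figure D4:**
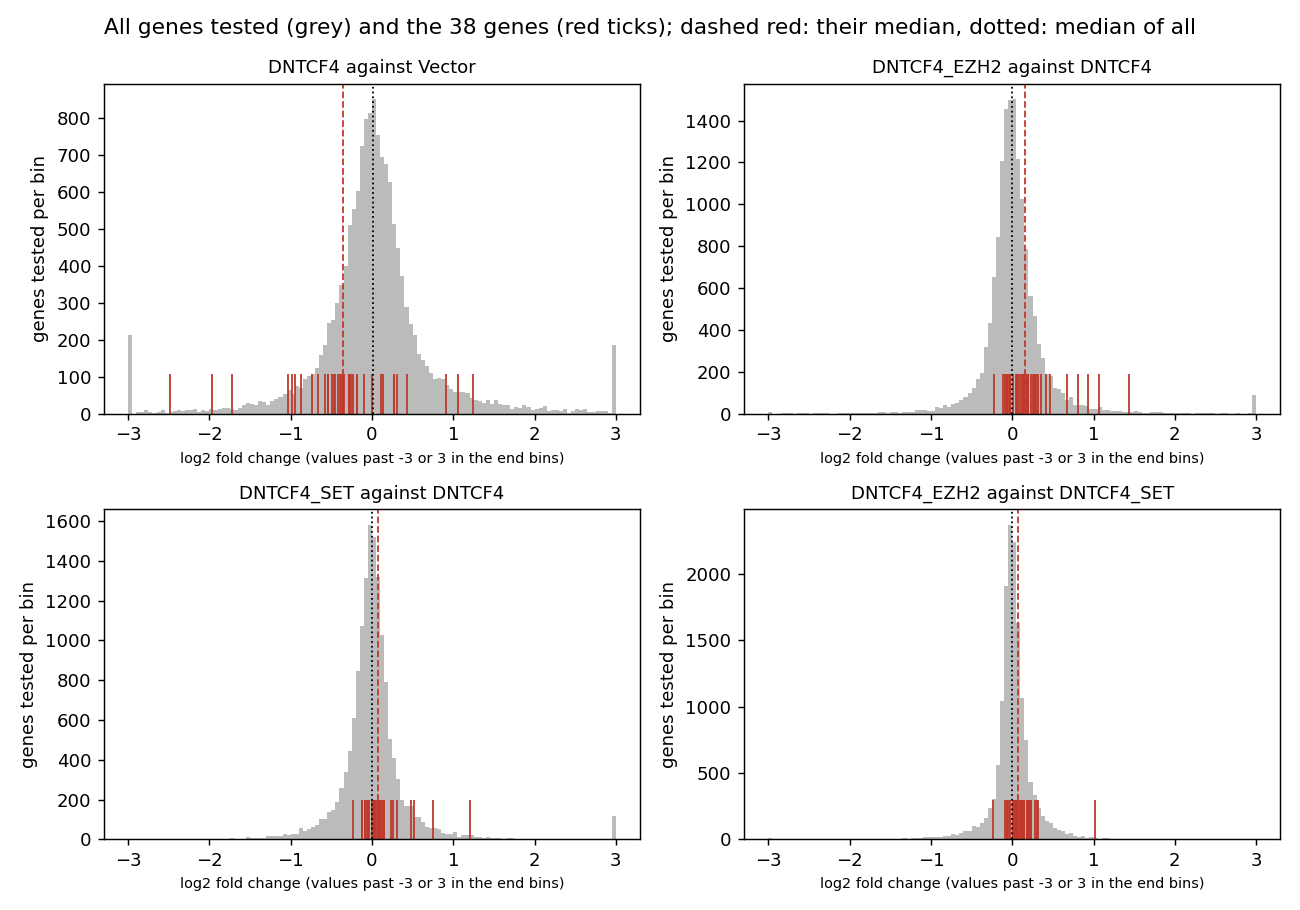
Histograms of the log2 fold changes of the 15052 genes tested (grey) in each of the 4 comparisons, with the 38 genes as red ticks, their median as a dashed red line and the median of all genes as a dotted black line. The dashed line lies at -0.35 for DNTCF4 against Vector, at 0.16 for DNTCF4_EZH2 against DNTCF4, and at 0.08 and 0.07 in the lower panels, with the dotted line near 0 throughout.

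A further 5 lists with 66 genes of the same pathways were read alongside, of which 59 were tested. Their counts are to be read against the shares over all genes: 29.5% higher and 28.0% lower for DNTCF4 against Vector, 13.0% and 12.5% for DNTCF4_EZH2 against DNTCF4, 12.7% and 13.3% for DNTCF4_SET against DNTCF4, and 3.00% and 2.17% between the last groups. Among 11 partners and turnover factors of NRF2, 5 were higher in DNTCF4 than in Vector and Sqstm1 alone was lower. Mafg and Mafk, small MAF proteins that pair with NRF2, rose from 154.0 ± 2.51 to 236.3 ± 2.57 CPM (log2 0.62, SE 0.03) and by 0.30, and Sqstm1, the p62 protein that binds KEAP1, fell by 0.27. In both rescue comparisons 3 of the 11 were lower and 1 higher: Mafg fell by 0.26 in DNTCF4_EZH2 and by 0.33 in DNTCF4_SET, and Mafk by 0.20 and 0.25.

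Of 13 tested other NRF2 targets and detoxification genes, 8 were lower and 3 higher in DNTCF4. Fth1, the ferritin heavy chain, went from 13750 ± 408 to 31550 ± 236 CPM (log2 1.20, SE 0.03, adjusted p = 3.61e-14). Aldh3a1, an aldehyde dehydrogenase, fell from 74.4 ± 1.495 to 23.4 ± 0.852 CPM and Ephx1, the microsomal epoxide hydrolase, from 68.6 ± 3.79 to 28.0 ± 3.16. In DNTCF4_EZH2 5 of the 13 were higher and 1 lower, and in DNTCF4_SET 3 were higher. Ephx1 rose to 42.6 ± 0.896 CPM in DNTCF4_EZH2 (log2 0.60) and to 34.0 ± 2.27 in DNTCF4_SET (0.27), and Ephx1 and Aldh3a1 were higher in the former than in the latter, by 0.33 and 0.36.

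Among 17 tested other glutathione enzymes, 12 were lower and 2 higher in DNTCF4, including Gpx8 (log2 -1.11), Gss, the glutathione synthetase that completes the tripeptide (-0.60), and Mgst2 (-0.73). In DNTCF4_EZH2 4 were higher and 2 lower, and in DNTCF4_SET 4 and 1; Gstt3, a theta class gene like Gstt1, rose from 5.84 ± 0.357 CPM to 9.67 ± 0.501 and 8.85 ± 0.496. Of the 12 other thioredoxin, peroxiredoxin and glutaredoxin genes, 3 were higher and 4 lower in DNTCF4, near the shares over all genes: Prdx5 rose by 0.58, and Txnip, an inhibitor of thioredoxin, and Txn2, the mitochondrial thioredoxin, fell by 0.71 and 0.47 on the log2 scale. With either rescue construct 1 of them was higher (Glrx, 0.28 and 0.18) and 2 lower (Txnrd2 and Txnrd3).

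Of 6 tested genes of metal handling, 3 were higher and 2 lower in DNTCF4. Slc39a14, an importer of zinc and iron, went from 52.9 ± 1.88 to 88.6 ± 1.19 CPM (log2 0.74, SE 0.04), Tfrc, the transferrin receptor, from 60.5 ± 1.13 to 101.4 ± 14.2, and Mtf1, the metal-responsive factor of the metallothionein promoters, from 42.1 ± 1.15 to 49.7 ± 2.64. In DNTCF4_EZH2 Slc39a14 fell by 0.20 and Tfrc by 0.35, and in DNTCF4_SET by 0.21 and 0.34, while Slc39a10 alone rose, in the second of these comparisons (0.19).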

How the data were processed

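The submitters' processing notes name DESeq2, RSEM 1.3.3, STAR 2.7.8a, FastQC 0.11.8, cutadapt 2.3 and the build GRCm38. The authors deposited expected counts per gene and a table of rlog values on a log2 scale. All expected counts in the deposited table were whole numbers. The annotation release and the use of strand are not given in the sources used here. Groups and replicate numbers came from the sample titles.

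Genes passing filterByExpr (minimum count 10, total 15) were fitted with edgeR 4.0.16 (quasi-likelihood test, TMM, 1 mean per group, 12 libraries, 8 residual degrees of freedom) in R 4.3.3, two-sided, with Benjamini-Hochberg adjustment over all 15052 genes and a threshold of 0.05. The biological coefficient of variation was 5.17%. CPM are scaled by TMM, and TPM use union exon lengths from GENCODE vM21. A positive log2 change means higher in the group named first. The quasi-likelihood test gives no SE, so the SE printed is the size of the log2 change divided by the square root of its F statistic. Counts spanned 23597545 to 33999982 per library, and the floor of 3 counts covers counting error only.

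The 38 genes and the further lists were chosen with earlier results of these data known. Values per library are given for Nfe2l2, Keap1, Mt1 and Mt2, for up to 8 called rises and 8 falls per comparison whose groups did not overlap and whose higher group reached a mean of 1 CPM, and for the smallest p of each role, and up to 3 genes of each list are named; further members with values were added for completeness after their values were seen. Alternatives were other size factors, filters, DESeq2 1.42.0, limma 3.58.1 on the rlog values, a replicate block, only the 6 libraries compared, and leaving out each library. The analysis scripts were tested on simulated data.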

Additional observations from a re-analysis of the deposited data

How the results depend on the processing

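Counts of genes called among the 38 stayed within 1.5 times of the reported value in DNTCF4 against Vector under all alternatives run. In DNTCF4_EZH2 against DNTCF4 the 2 lower genes became 1 with no filter on low counts and 0 with only the 6 libraries compared, and 1 to 3 with a library left out. In DNTCF4_SET against DNTCF4 the 1 lower gene became 1 to 2 with a library left out, and the genes called over the whole table went from 3914 to 2532 with only the 6 libraries. In DNTCF4_EZH2 against DNTCF4_SET the 6 higher genes became 3 with DESeq2 size factors, 11 with no filter, 17 with only the 6 libraries and 2 to 3 with a library left out. The 1 lower gene there became 2 with only the 6 libraries, 0 on the rlog values and 0 with any library left out, and the genes called over the whole table went from 777 to 2177 with only the 6 libraries and 359 to 439 with a library left out. The causes were not tested.

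Replicate numbers did not pair the libraries: same-numbered deviations correlated at -0.0906 to 0.0346. With the replicate block the 38 genes gave 9 higher and 28 lower (8584 genes called in all) for DNTCF4 against Vector, 22 and 2 (3713) for DNTCF4_EZH2 against DNTCF4, 9 and 1 (3736) for DNTCF4_SET against DNTCF4, and 4 and 1 (638) for the difference between the constructs.

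Calls were both gained and lost with other settings. Between the constructs 12 genes gained a call with only the 6 libraries (Txnrd1, Srxn1, G6pdx, Pgd, Sod3, Cat, Gpx1, Gpx3, Mt1, Gstm2, Gstp1 and Gstt1), 5 with no filter (G6pdx, Pgd, Sod3, Gpx3 and Mt1), 2 with a filter at 1 CPM (G6pdx and Pgd), 2 with DESeq2 (Txnrd1 and Pgd) and 1 on the rlog values (Txnrd1). With no filter Prdx1 gained a call in both comparisons against DNTCF4 and Sod3 in that of DNTCF4_SET, where Taldo1 gained one with DESeq2 size factors, the DESeq2 test, the filter at 1 CPM and the rlog values. Calls lost with only the 6 libraries compared were Nfe2l2, Prdx1, Cat and Gstt1 for DNTCF4 against Vector, Slc7a11, Taldo1, Tkt, Sod1, Sod3, Mt1 and Gsto1 for DNTCF4_EZH2 against DNTCF4, and Gclm and Cat for DNTCF4_SET against DNTCF4. With limma on the rlog values they were Prdx1 in the first, Tkt, Sod3 and Mt1 in the second, and Slc7a11 and Gstm1 between the constructs. With no filter Cat in the first and Taldo1, Sod1 and Gsto1 in the second were lost. Between the constructs Nqo1, Gclm and Gstm1 were lost with DESeq2 size factors, Nqo1 with the DESeq2 test (adjusted p = 0.0528), and Nqo1 and Gclm with the replicate block (adjusted p = 0.0664 and 0.0554).

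The log2 values that changed sign all belong to genes that did not pass the test in the reported fit, and the cause was not tested. For DNTCF4 against Vector, Gsr was at -0.00097 with DESeq2 size factors, -0.0018 with only the 6 libraries and -0.00095 with DESeq2, and at -0.058 to 0.045 with a library left out. For DNTCF4_SET against DNTCF4, in the same order, Gpx1 was at 0.014, 0.0050 and 0.014 and Mt2 at 0.013, 0.0037 and 0.013. On the rlog values they were at 0.010 and 0.0083, and Gpx1 was at 0.00026 with a filter at a mean of 1 CPM. Between the constructs Nfe2l2 was at -0.0020 with DESeq2 size factors, -0.0018 with DESeq2 and -0.0019 on the rlog values, and Prdx1 at -0.0080, -0.0078 and -0.0052, and -0.0011 with only the 6 libraries. With a library left out, Keap1 lay at -0.085 to 0.016, Osgin1 at -0.11 to 0.024, Prdx6 at -0.042 to 2.4e-05 and Me1 at -0.042 to 0.13 for DNTCF4_EZH2 against DNTCF4. For DNTCF4_SET against DNTCF4 the ranges were -0.10 to 0.0018 (Keap1), -0.044 to 0.11 (Slc7a11), -0.045 to 0.052 (Gpx1), -0.075 to 0.065 (Mt1), -0.020 to 0.025 (Mt2) and -0.33 to 0.029 (Gsta2). Between the constructs they were -0.0024 to 0.030 (Nfe2l2), -0.014 to 0.056 (Keap1), -0.0027 to 0.10 (Osgin1) and -0.025 to 0.056 (Prdx1).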
